A study of Mus musculus with 12 samples.

Results

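The mural cell transcription factors described here are 10 genes: the T-box genes Tbx2, Tbx3 and Tbx18, the Ebf genes Ebf1 and Ebf2, and the forkhead genes Foxs1, Foxc1, Foxc2, Foxf1 and Foxd1. They were taken by name from the 47729 genes of the series, and all 10 were found. RNA was sequenced from mesenchymal cells sorted from the healthy uteri of 12 cycling female Pdgfrb-BAC-eGFP mice, in which a bacterial artificial chromosome drives enhanced green fluorescent protein (GFP) as a reporter of Pdgfrb, the receptor gene by which mural cells are recognised. GFPtotal libraries (n = 6, titled Naive) hold the GFP-high perivascular cells and the GFP-low stromal fibroblasts sorted together. GFPlow libraries (n = 6, titled Stromal and also named GFPdim in the labels) hold the GFP-low fibroblasts alone. All libraries come from the same reporter strain, no age or cycle stage is given in the sources used here, and no label ties a library to 1 mouse, so a p-value here weighs only library-to-library spread, which may be technical. The comparison of GFPtotal with GFPlow was made by the study to infer the profile of the GFP-high cells, which were not sequenced alone.

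Mural cells, the pericytes of capillaries and the smooth muscle cells of larger vessels, wrap the endothelium and share a mesenchymal origin with the fibroblasts around them. T-box factors bind DNA through the T domain, Ebf factors through a zinc-coordinating domain next to a helix-loop-helix, and forkhead factors through a winged helix. Several are used in mice to trace mural or mesenchymal lineages, Tbx18 for pericytes and smooth muscle and Foxd1 for the stromal progenitors of the kidney. A transcription factor can act at a low RNA level, so the counts behind each value are given with it.

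Total counts were 12631266 to 14950639 in the GFPtotal libraries and 14339804 to 18425596 in the GFPlow libraries, of which mitochondrial genes took 32.4% to 49.0% over both groups. The summed level of 10 pericyte markers was 865 to 1521 CPM (counts scaled to TMM-adjusted library size) in GFPtotal and 4.12 to 16.7 CPM in GFPlow, and all 6 of those tested were higher in GFPtotal. The summed level of 8 fibroblast markers was 23338 to 40072 CPM in GFPtotal, against 15417 to 23279 CPM in GFPlow. Both groups thus carried fibroblast genes, and every GFPtotal library lay above every GFPlow library, though GFPlow holds the fibroblasts alone. Of these 8 markers, 1 was called higher in GFPtotal, and 4 were without GFPtotal 3, 4 and 5. The cause of this difference was not tested. The summed level of 9 endothelial markers was 33.5 to 59.8 CPM in GFPtotal, against 39.6 to 60.2 CPM in GFPlow. Of these 9 markers, 4 were tested and 1 was called, lower in GFPtotal. GFPtotal 3, 4 and 5 stood apart from the other libraries on the first principal component, at 102 to 107 against 6.66 or less elsewhere, and their fibroblast marker sums were 23338 to 27303 CPM against 37604 to 40072 CPM in GFPtotal 1, 2 and 6. The header of the file labelled GFPlow 6 names an alignment N8 in place of S6, while its pericyte marker sum of 16.7 CPM is of the size of the other GFPlow libraries. Values of the members and of most called genes named from the lists are therefore also given without GFPtotal 3, 4 and 5 and without GFPlow 6.

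The sequences shown are the promoter of Foxc1, the member with the clearest difference between the groups, the promoters of Ebf1, the member with the most RNA, and a stretch of coding sequence that Foxc1 shares with Foxc2. RefSeq promoter windows, from 250 bases before to 50 after a transcription start on GRCm38.p6, were found for 4 of the 10 members. They were those of Foxc1, Ebf1, Foxd1 and Tbx18, with 2 windows for Ebf1. Capitals mark CG dinucleotides (CpG), each read 5′ to 3′ on the + strand.
Foxc1 promoter, chr13:31806396-31806695: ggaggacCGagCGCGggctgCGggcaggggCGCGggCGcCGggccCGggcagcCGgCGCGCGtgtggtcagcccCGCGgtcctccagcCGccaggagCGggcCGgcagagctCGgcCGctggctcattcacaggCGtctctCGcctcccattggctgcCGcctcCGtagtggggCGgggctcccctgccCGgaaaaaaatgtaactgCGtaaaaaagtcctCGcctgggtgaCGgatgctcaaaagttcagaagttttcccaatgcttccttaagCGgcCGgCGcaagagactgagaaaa
Ebf1 promoter, chr11:44617850-44618149: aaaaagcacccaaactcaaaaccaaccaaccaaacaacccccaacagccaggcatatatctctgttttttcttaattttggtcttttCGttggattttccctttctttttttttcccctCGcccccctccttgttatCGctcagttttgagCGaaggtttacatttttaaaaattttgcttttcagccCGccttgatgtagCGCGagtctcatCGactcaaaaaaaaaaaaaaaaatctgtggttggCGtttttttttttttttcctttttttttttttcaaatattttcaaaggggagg
Ebf1 promoter, chr11:44619978-44620277: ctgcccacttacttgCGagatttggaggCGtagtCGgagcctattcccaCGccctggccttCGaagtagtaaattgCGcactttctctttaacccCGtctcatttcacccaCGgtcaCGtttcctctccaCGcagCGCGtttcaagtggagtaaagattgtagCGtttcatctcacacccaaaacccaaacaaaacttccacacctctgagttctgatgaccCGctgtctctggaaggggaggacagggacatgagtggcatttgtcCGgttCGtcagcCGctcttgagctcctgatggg
The Foxc1 window held 32 CpG and 67.3% G or C, against a median of 7 CpG and 52.7% over 32851 RefSeq windows of the same length. The Ebf1 windows held 9 and 17 CpG, and the upstream one was rich in runs of A and T, at 36.7% G or C. Motifs were searched on both strands, and no member window held one. The forkhead motif GTAAACA occurs in 3.65% of all windows. The T-box motif AGGTGTGA occurs in 1.275% of them. The EBF palindrome occurs in 0.904% and the TATA box, TATAAA, in 13.6%.

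Foxc1 and Foxc2 are close paralogs, each with 1 exon, and the longest run of identical coding bases between them was 53. It lies in Foxc1 at chr13:31807646-31807698 and in Foxc2 at chr8:121117032-121117084 (GRCm38, GENCODE M21), and is shown because a fragment that fell wholly inside it could not be assigned to either gene.
Foxc1 and Foxc2 shared coding run: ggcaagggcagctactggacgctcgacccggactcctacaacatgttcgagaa
In all, 4 stretches of 50 bases were shared by the 2 transcripts, of 5795 in the 5844-base GENCODE M21 transcript of Foxc1 and 2676 in that of Foxc2. The Foxc1 model used for the counts is shorter, with 3953 exon bases. Foxc2 had 0 counts in all 12 libraries.

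The level of the members per kilobase of exon (CPM per kb) spanned more than 3 orders of magnitude, and Ebf1 stood at the top in both groups. Ebf1 averaged 38.1 ± 9.72 CPM per kb in GFPtotal and 51.6 ± 20.4 CPM per kb in GFPlow (SD, n = 6 each), which is 83.8% and 87.3% of the summed level of the 10 members. Tbx3 came next, at 5.56 ± 0.990 CPM per kb in GFPtotal and 7.06 ± 1.03 CPM per kb in GFPlow. The ranges of Ebf1 and Tbx3 did not touch each other, or those of any member below them, in either group.

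Below Tbx3 the order of the means differed between the groups. In GFPtotal the levels were 0.571 CPM per kb for Foxc1, 0.556 for Ebf2, 0.484 for Tbx2, 0.107 for Foxf1, 0.0560 for Tbx18 and 0.0188 for Foxs1. The ranges of Foxc1 (0.217 to 1.01), Ebf2 (0 to 1.44) and Tbx2 (0.0983 to 0.948) overlapped, so these 3 neighbours could not be ranked beyond the spread between libraries. In GFPlow the levels were 0.139 CPM per kb for Foxf1, 0.130 for Tbx18, 0.0685 for Tbx2, 0.0566 for Ebf2 and 0.0378 for Foxc1, and the ranges of these 5 overlapped as well. By its mean, Foxc1 was next below Tbx3 in GFPtotal and the lowest detected member in GFPlow. The overlapping ranges do not fix its rank in either group.

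**Figure D1:**
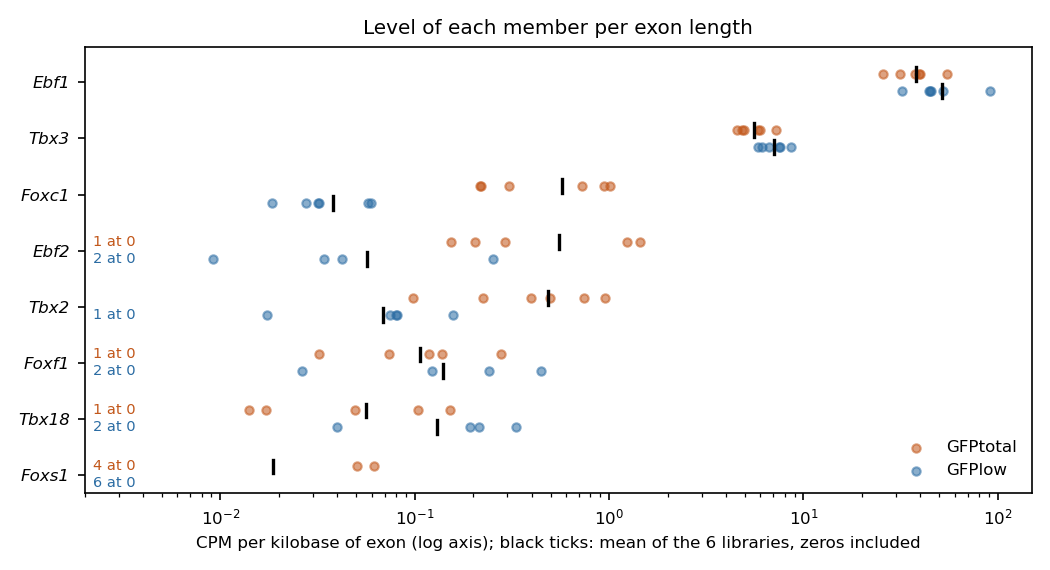
CPM per kilobase of exon on a log axis for the 8 members with at least 1 count, GFPtotal above GFPlow in each row, 1 point per library and a black tick at the mean. Ebf1 and Tbx3 lie above all other members in both groups, and libraries at 0 are counted at the left edge.

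Of the 10 members, 8 had at least 1 count, 4 (Tbx3, Ebf1, Ebf2 and Foxc1) had enough counts to be tested, and 1, Foxc1, differed between the groups at an adjusted p below 0.05 (edgeR's quasi-likelihood test). Over all 14523 genes tested, 785 (5.41%) were called, 661 (4.55%) higher and 124 (0.854%) lower in GFPtotal. Foxc1 met the filter on low counts through its GFPtotal libraries, and Ebf2 mainly through them, so the count of 1 in 4 is a description, is not read against that background, and no median over the 4 is given. Without GFPtotal 3, 4 and 5, Foxc1 was again the called member, with 245 (1.56%) higher and 50 (0.318%) lower of 15703 genes tested. Without GFPlow 6 the count was also 1.

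Foxc1 (ENSMUSG00000050295, chr13:31806691-31810643, + strand) encodes a forkhead factor required in mice for the mesenchyme of the eye, skull and meninges and for normal brain pericytes. It had 37, 46, 17, 14, 13 and 45 counts in GFPtotal 1 to 6, against 2, 4, 2, 4, 1 and 2 counts in GFPlow 1 to 6. Every GFPtotal library lay above every GFPlow library. Over the 14523 tested genes, 415 (2.86%) showed such a separation in this direction. With at most 4 counts in any GFPlow library, Foxc1 could meet the filter on low counts only through its GFPtotal libraries. Its separation therefore followed from the filter and is not read against that share. Foxc1 averaged 2.26 ± 1.45 CPM in GFPtotal, against 0.149 ± 0.0664 CPM in GFPlow (SD, n = 6 each), a log2 fold change of 3.83 (adjusted p = 0.00294, SE 0.69, edgeR's quasi-likelihood test). The summed counts were 172 in GFPtotal and 15 in GFPlow, which gave a ratio of CPM of 13.8 (exact 95% interval 8.14 to 25.2, for counting error only). In bulk samples, fewer cells that express a gene and less of its RNA per cell cannot be told apart, here and in each comparison that follows.

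Within GFPtotal, Foxc1 fell into a high and a low set of 3 libraries. GFPtotal 1, 2 and 6 had 2.86 to 4.01 CPM, and GFPtotal 3, 4 and 5 had 0.859 to 1.22 CPM. The pericyte marker sums ran the other way, at 865 to 1176 CPM in GFPtotal 1, 2 and 6, with 1246 to 1521 CPM in GFPtotal 3, 4 and 5. The summed level of 8 smooth muscle markers was 187 to 227 CPM in GFPtotal 1, 2 and 6, with 293 to 392 CPM in GFPtotal 3, 4 and 5, against 45.8 to 94.1 CPM in GFPlow. Of these 8 markers, 6 were tested and 3 were called, all higher in GFPtotal. Mitochondrial genes took 45.3% to 49.0% of the counts in GFPtotal 1, 2 and 6 and 32.4% to 40.5% in GFPtotal 3, 4 and 5, against 35.1% to 45.7% in GFPlow. The fibroblast marker sums were higher in GFPtotal 1, 2 and 6, as given above, and the part of these cell types or of the mitochondrial share in the Foxc1 difference was not tested. Without GFPtotal 3, 4 and 5 the log2 fold change of Foxc1 was 4.46 (adjusted p = 0.00592), and without GFPlow 6 it was 3.75 (adjusted p = 0.00999, edgeR's quasi-likelihood test for both). The nearest named neighbour of Foxc1 is Gmds, an enzyme gene of GDP-fucose synthesis 8936 bases away on the opposite strand. Gmds averaged 21.98 ± 16.6 CPM in GFPtotal, against 29.4 ± 12.8 CPM in GFPlow, a log2 fold change of -0.42 (adjusted p = 0.715, edgeR).

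Foxc2 (ENSMUSG00000046714, chr8:121116171-121118895, + strand), which acts with Foxc1 in vessel and lymphatic development in mice, had 0 counts in all 12 libraries. So did Foxd1 (ENSMUSG00000078302, chr13:98354242-98356703, + strand), the marker of renal stromal progenitors. A count of 0 allows up to 3 counts, that is 0.0367 CPM over the 6 GFPtotal libraries and 0.0305 CPM over the 6 GFPlow libraries. Foxl1, which lies 9045 bases from Foxc2, was also at 0 throughout.

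Foxs1 (ENSMUSG00000074676, chr2:152931898-152933208, - strand), a forkhead gene known from pericytes and vascular smooth muscle in mice, had 2 counts in all, 1 each in GFPtotal 2 and 5. It had 0 counts in the 6 GFPlow libraries. Both values lie under the 3 counts that a count of 0 allows, so no difference was detectable at this depth. Foxs1 stayed near 0 in libraries whose pericyte marker sum reached 1521 CPM.

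Foxf1 (ENSMUSG00000042812, chr8:121084386-121088144, + strand), a Hedgehog-responsive factor of lung and gut mesenchyme, had 1, 0, 4, 11, 5 and 2 counts in GFPtotal 1 to 6, against 1, 19, 0, 5, 8 and 0 counts in GFPlow 1 to 6. It averaged 0.258 ± 0.239 CPM in GFPtotal, against 0.336 ± 0.426 CPM in GFPlow, and the groups overlapped. With no filter on low counts, which brought 28485 genes into the test and called 741 (2.6%) higher, its log2 fold change was -0.37 (adjusted p = 0.907, edgeR). The level was 0.0852 ± 0.0893 CPM in GFPtotal 1, 2 and 6 (SD, n = 3) and 0.403 ± 0.439 CPM in GFPlow without GFPlow 6 (SD, n = 5). Of its exon bases, 4.06% are shared with a gene on the opposite strand, and the counting did not use strand. Fendrr, the long non-coding RNA gene 1276 bases from Foxf1, had 56 counts over the 12 libraries.

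**Figure D2:**
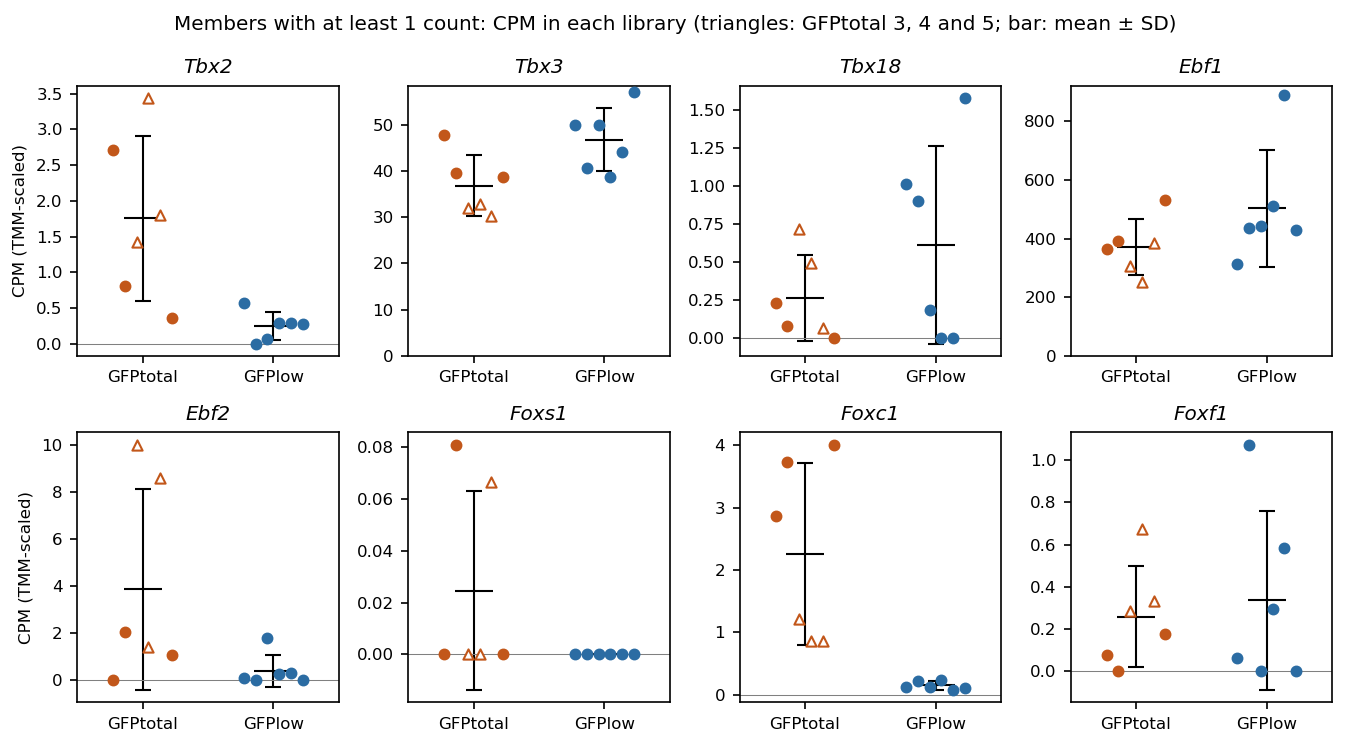
CPM in each library for the 8 members with at least 1 count, each on its own scale, GFPtotal left of GFPlow, with triangles for GFPtotal 3, 4 and 5 and bars for mean ± SD. Foxc1 separates the groups without overlap. For Ebf2, GFPtotal 1, 4 and 6 lie below GFPlow 3, and for Tbx2, GFPtotal 6 lies below GFPlow 1.

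Ebf1 (ENSMUSG00000057098, chr11:44617317-45008091, + strand), best known for committing progenitors to the B cell lineage and also active in pericytes and adipocyte precursors, was abundant in both groups and did not pass the test. Its lowest, median and highest levels were 251, 374 and 532 CPM in GFPtotal, against 312, 439 and 888 CPM in GFPlow. The groups overlapped, with 2 GFPtotal libraries below all GFPlow libraries and 1 GFPlow library above all GFPtotal libraries. Ebf1 averaged 372 ± 94.8 CPM in GFPtotal, against 503 ± 199 CPM in GFPlow (SD, n = 6 each), a log2 fold change of -0.44 (adjusted p = 0.297, SE 0.23, edgeR). With 29674 counts in GFPtotal and 48446 in GFPlow, depth was not what limited this comparison, and GFPlow 5 gave the highest value.

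The Ebf1 log2 fold change was -0.20 without GFPlow 5 (adjusted p = 0.598), -0.25 without GFPtotal 3, 4 and 5 (adjusted p = 0.767) and -0.48 without GFPlow 6 (adjusted p = 0.321, edgeR for all 3). Ebf1 is also expressed in B cells, and the summed level of 9 leukocyte markers was 3.97 to 18.05 CPM in GFPtotal, against 4.07 to 16.4 CPM in GFPlow. Cd79a, a defining B cell gene, had 6 counts over the GFPtotal libraries and 12 over the GFPlow libraries. A predicted antisense gene inside the Ebf1 span shares none of its exon bases and had 53.2 ± 23.6 CPM in GFPtotal, against 68.4 ± 18.5 CPM in GFPlow (log2 fold change -0.36, adjusted p = 0.503, edgeR).

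Ebf2 (ENSMUSG00000022053, chr14:67233292-67430918, + strand), which selects the brown adipocyte fate and marks mesenchymal progenitors in mice, was low and uneven. It had 0, 25, 140, 23, 129 and 12 counts in GFPtotal 1 to 6, against 1, 0, 28, 4, 4 and 0 counts in GFPlow 1 to 6. GFPtotal 3 and 5 were the highest, at 10.01 and 8.58 CPM, GFPtotal 1 had none, and 3 GFPtotal libraries lay above all GFPlow libraries. The means were 3.85 ± 4.29 CPM in GFPtotal, against 0.392 ± 0.682 CPM in GFPlow (SD, n = 6 each), a log2 fold change of 3.28 (adjusted p = 0.141, SE 1.22, edgeR).

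The Ebf2 value depended on single libraries. It was 4.98 without GFPlow 3 (adjusted p = 0.0415, called), 2.69 without GFPtotal 3 (adjusted p = 0.298), 1.36 without GFPtotal 3, 4 and 5 (adjusted p = 0.784) and 3.01 without GFPlow 6 (adjusted p = 0.211, edgeR for all 4). DESeq2 gave 3.29 on all libraries (adjusted p = 0.0348) and called it. The gene shares 6.12% of its exon bases with an antisense gene that had 9 and 22 counts in GFPtotal 4 and 5 and none elsewhere. Ebf2 made up 0 to 4.38% of the summed Ebf1 and Ebf2 level per kilobase in GFPtotal libraries and 0 to 0.559% in GFPlow libraries.

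**Figure D3:**
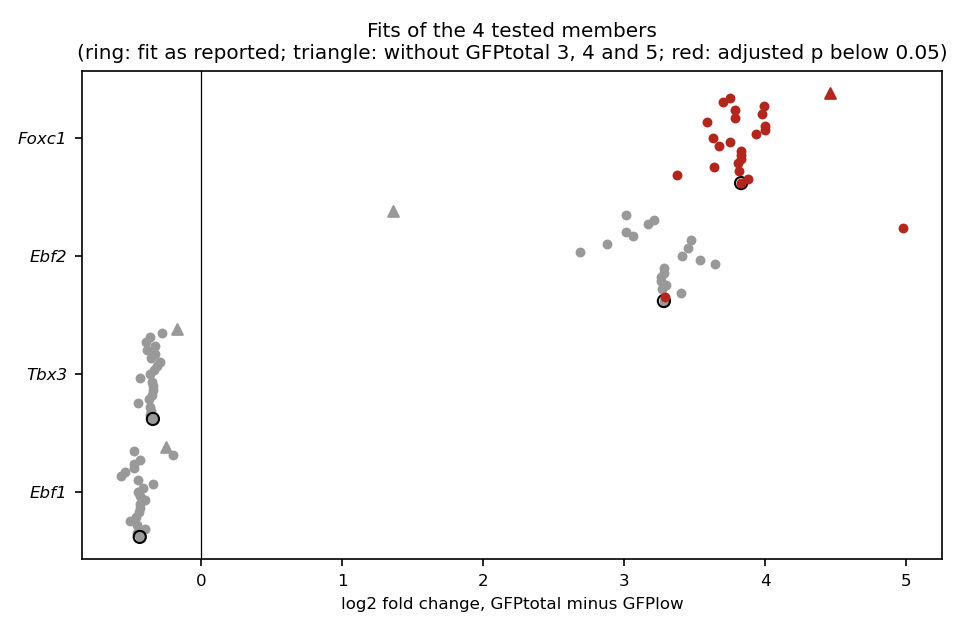
Log2 fold change of the 4 tested members (GFPtotal minus GFPlow, horizontal axis), 1 point per fit of 23, with a ring for the fit reported, a triangle for the fit without GFPtotal 3, 4 and 5, and red for an adjusted p below 0.05. Foxc1 was called in all 23 fits, Ebf2 in 2, and Tbx3 and Ebf1 stayed below 0 and uncalled.

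Tbx3 (ENSMUSG00000018604, chr5:119670669-119684724, + strand), a repressor that holds back senescence genes and is mutated in human ulnar-mammary syndrome, was the second most abundant member. Its lowest, median and highest levels were 30.2, 35.8 and 47.8 CPM in GFPtotal, against 38.8, 47.0 and 57.0 CPM in GFPlow. The groups overlapped, with 4 GFPtotal libraries below all GFPlow libraries. Tbx3 averaged 36.8 ± 6.56 CPM in GFPtotal, against 46.7 ± 6.83 CPM in GFPlow (SD, n = 6 each), a log2 fold change of -0.34 (adjusted p = 0.283, SE 0.17, edgeR) that did not pass the threshold. It was -0.17 without GFPtotal 3, 4 and 5 (adjusted p = 0.804) and -0.28 without GFPlow 6 (adjusted p = 0.458, edgeR). Tbx3os1, an antisense gene that shares 115 exon bases with Tbx3 (1.74% of them), averaged 2.16 ± 1.16 CPM in GFPtotal, against 0.981 ± 1.12 CPM in GFPlow (log2 fold change 1.14, adjusted p = 0.383, edgeR).

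Tbx2 (ENSMUSG00000000093, chr11:85832551-85841948, + strand), the nearest relative of Tbx3 and likewise a repressor, had too few counts for the test as reported. It had 35, 10, 20, 56, 27 and 4 counts in GFPtotal 1 to 6, against 9, 0, 1, 5, 4 and 5 counts in GFPlow 1 to 6. The levels were 1.76 ± 1.16 CPM in GFPtotal, against 0.248 ± 0.202 CPM in GFPlow, and 5 of 6 GFPtotal libraries lay above all GFPlow libraries. GFPtotal 6, the exception, had 0.356 CPM, below the 0.569 CPM of GFPlow 1. The level was 1.29 ± 1.25 CPM in GFPtotal 1, 2 and 6 (SD, n = 3) and 0.244 ± 0.225 CPM in GFPlow without GFPlow 6 (SD, n = 5). The ratio of CPM over the summed counts, 152 in GFPtotal and 24 in GFPlow, was 7.63 (exact 95% interval 4.94 to 12.3, for counting error only).

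With no filter on low counts the log2 fold change of Tbx2 was 2.78 (adjusted p = 0.116, SE 0.96, edgeR). Leaving out 1 library let it into the test in 3 cases. It was 3.00 without GFPtotal 6 (adjusted p = 0.0420), 3.20 without GFPlow 1 (adjusted p = 0.0466) and 2.59 without GFPlow 3 (adjusted p = 0.120, edgeR for all 3). Per kilobase, Tbx2 was 1.65% to 16.03% of the summed Tbx2 and Tbx3 level in GFPtotal libraries and 0 to 2.04% in GFPlow libraries. Bcas3, 6493 bases from Tbx2 on the same strand, had 20.8 ± 9.62 CPM in GFPtotal, against 15.3 ± 5.49 CPM in GFPlow (log2 fold change 0.44, adjusted p = 0.523, edgeR).

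Tbx18 (ENSMUSG00000032419, chr9:87702800-87731260, - strand), the T-box gene used to mark pericytes and vascular smooth muscle in mice, was at the edge of detection. It had 3, 1, 10, 8, 1 and 0 counts in GFPtotal 1 to 6, against 16, 16, 3, 0, 0 and 29 counts in GFPlow 1 to 6. The highest values were in GFPlow 6, GFPlow 1 and GFPlow 2, while 2 other GFPlow libraries had none. The levels were 0.264 ± 0.282 CPM in GFPtotal, against 0.613 ± 0.648 CPM in GFPlow. With no filter on low counts the log2 fold change was -1.20 (adjusted p = 0.608, edgeR), and without GFPtotal 3, 4 and 5 it was -2.47 (adjusted p = 0.614, edgeR). GFPlow 6 held 29 of its 64 GFPlow counts, and without that library the GFPlow level was 0.421 ± 0.498 CPM (SD, n = 5). Of its exon bases, 20.6% are shared with an antisense gene, and 852 of its 4668 stretches of 50 bases also occur in other genes, so its few counts are uncertain.

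The other genes of the 3 families give the frame for these values. The T-box family has 17 genes, of which 11 had a count and 2, Tbx3 and Mga, were tested. Mga, a T-box protein that also pairs with Max, averaged 344 ± 38.01 CPM in GFPtotal, against 312 ± 23.6 CPM in GFPlow, a log2 fold change of 0.14 (adjusted p = 0.578, edgeR). Per kilobase it was the most abundant T-box gene, at 22.4 CPM per kb in GFPtotal and 20.3 CPM per kb in GFPlow. Tbx6, a factor of the embryonic paraxial mesoderm, had 67 counts in GFPtotal and 38 in GFPlow and was not tested.

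Of the 4 Ebf genes and 2 zinc-finger cofactors, all 6 were tested and 2, Ebf3 and Zfp521, were higher in GFPtotal. The median log2 fold change of the 6 was 1.31, and it was 0.26 without GFPtotal 3, 4 and 5, where neither Ebf3 nor Zfp521 was called. Ebf2 and Ebf3, with 37 counts each over GFPlow, met the filter on low counts mainly through GFPtotal. The medians and the 2 calls are therefore a description and are not read against all genes tested. Ebf3 had 0.387, 3.51 and 7.93 CPM at its lowest, median and highest in GFPtotal, against 0, 0.145 and 1.26 CPM in GFPlow. Its log2 fold change was 3.49 (adjusted p = 0.0309, SE 0.90, edgeR), and it was called in 11 of the 22 alternative fits. Ebf3, a close relative of Ebf1, lost its call when GFPtotal 3, 4 or 5 or GFPlow 2, 3, 4, 5 or 6 was left out (adjusted p = 0.0519 to 0.0894, edgeR), and reached 4.37 without GFPlow 1 (adjusted p = 0.0116). Without GFPlow 6 it was 3.36 (adjusted p = 0.0709), and without GFPtotal 3, 4 and 5 it was 2.49 (adjusted p = 0.392, edgeR for both).

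Zfp521, a zinc-finger protein that binds Ebf1 and opposes it in blood and fat precursors, averaged 29.0 ± 16.5 CPM in GFPtotal, against 9.20 ± 2.54 CPM in GFPlow. Its log2 fold change was 1.66 (adjusted p = 0.0128, SE 0.37, edgeR). GFPtotal 3, 4 and 5 had 35.4 to 53.5 CPM of it and GFPtotal 1, 2 and 6 had 8.50 to 24.1 CPM. Without GFPtotal 3, 4 and 5 its log2 fold change was 0.77 (adjusted p = 0.419), and without GFPlow 6 it was 1.78 (adjusted p = 0.0184, edgeR for both).

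Of 44 forkhead genes, 25 had a count, 14 were tested and 2, Foxc1 and Foxp1, were called, both higher in GFPtotal. The shares over all genes tested were 4.55% higher and 0.854% lower. The median log2 fold change of the 14 was 0.05, and it was -0.00491 over 15 tested without GFPtotal 3, 4 and 5. In that fit 2 were called higher, Foxc1 and Foxo1, the latter described in the last section. Foxc1 met the filter on low counts through its GFPtotal libraries. The calls and medians are therefore a description and are not read against the shares over all genes. Foxp1, a forkhead repressor with roles in lymphocytes and heart, averaged 82.2 ± 35.7 CPM in GFPtotal, against 29.6 ± 6.47 CPM in GFPlow. Its log2 fold change was 1.47 (adjusted p = 0.00317, SE 0.27, edgeR), with all 6 GFPtotal libraries above all GFPlow libraries. GFPtotal 3, 4 and 5 carried 90.1 to 134 CPM of Foxp1 and GFPtotal 1, 2 and 6 carried 39.8 to 61.8 CPM, the reverse of the order seen for Foxc1. Without GFPtotal 3, 4 and 5 the log2 fold change of Foxp1 was 0.82 (adjusted p = 0.102, edgeR), and without GFPlow 6 it was 1.48 (adjusted p = 0.00848).

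**Figure D4:**
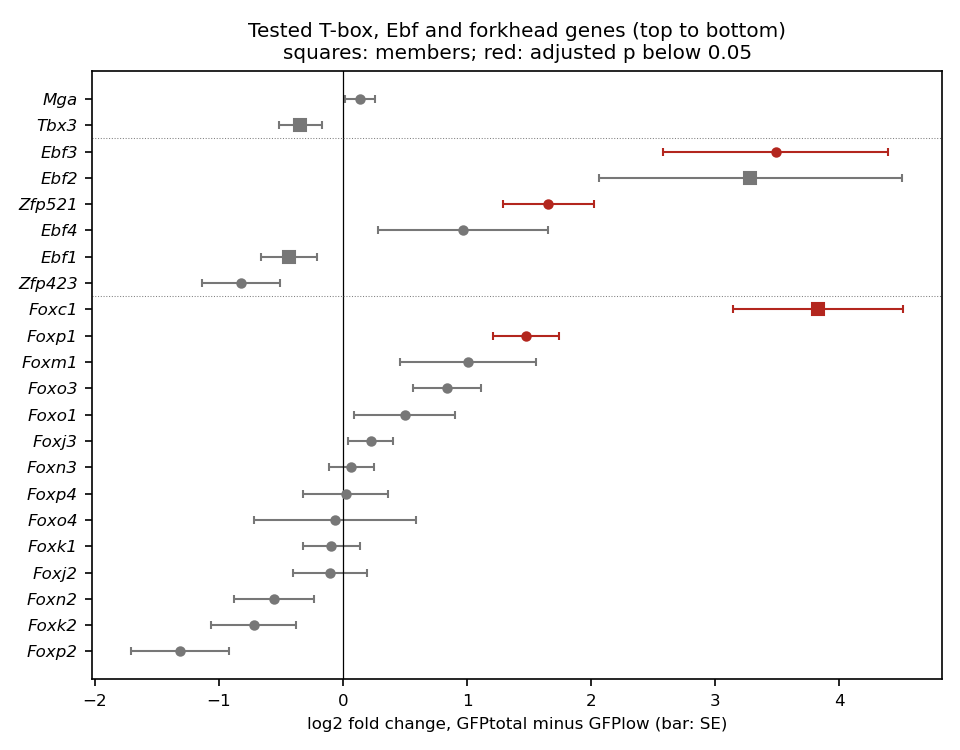
Log2 fold change (GFPtotal minus GFPlow, bar: SE) of the tested T-box, Ebf and forkhead genes, with squares for the members and red for an adjusted p below 0.05. Foxc1 has the largest value among the tested forkhead genes, and Ebf1 and Tbx3 lie near 0 with short bars.

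Among 31 other regulators of mural and mesenchymal cells, 27 were tested and 7 were called, all higher in GFPtotal. Over all genes tested, 4.55% were called higher and 0.854% lower. The median log2 fold change was 0.40 over the 27, and 0.42 over 28 tested without GFPtotal 3, 4 and 5. Myocd, the coactivator of serum response factor in smooth muscle, averaged 6.88 ± 5.25 CPM in GFPtotal, against 0.172 ± 0.327 CPM in GFPlow (log2 fold change 5.23, adjusted p = 0.00702, SE 1.04, edgeR). With 18 counts over GFPlow, Myocd met the filter on low counts through its GFPtotal libraries. The 7 calls and the medians are therefore a description and are not read against the shares over all genes. Gata6, a zinc-finger factor of vascular smooth muscle, averaged 5.83 ± 4.53 CPM in GFPtotal, against 0.183 ± 0.205 CPM in GFPlow (log2 fold change 4.93, adjusted p = 0.00364, SE 0.91, edgeR). Meox2, a homeobox factor of muscle and vessels, had a log2 fold change of 4.80 (adjusted p = 0.0118, edgeR), and Id4, an inhibitor of helix-loop-helix factors, one of 3.25 (adjusted p = 0.0229, edgeR).

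Per kilobase, Myocd averaged 1.07 CPM per kb in GFPtotal, against 0.0268 CPM per kb in GFPlow, and Foxc1 had 0.571 CPM per kb in GFPtotal, against 0.0378 CPM per kb in GFPlow. Myocd had 6.22 to 16.02 CPM in GFPtotal 3, 4 and 5, with 0.980 to 6.64 CPM in GFPtotal 1, 2 and 6. Without GFPlow 6 the log2 fold change was 7.18 for Myocd (adjusted p = 0.000999), 4.66 for Gata6 (adjusted p = 0.00732), 4.93 for Meox2 (adjusted p = 0.0281) and 3.68 for Id4 (adjusted p = 0.0221, edgeR for all 4). Without GFPlow 1 that of Meox2 was 5.97 (adjusted p = 0.00404). Id4 lost its call without GFPtotal 3 (adjusted p = 0.0625) and without GFPlow 3 (adjusted p = 0.0549, edgeR for all 3). Mef2c, also called, averaged 89.5 CPM in GFPtotal, against 25.6 CPM in GFPlow, with no overlap (log2 fold change 1.80, adjusted p = 1.43e-05, edgeR). Without GFPtotal 3, 4 and 5, 3 of 28 regulators tested were called. They were Gata6 (log2 fold change 4.83, adjusted p = 0.0216), Mef2c (1.58, adjusted p = 0.000243, edgeR for both) and Epas1, described in the last section. Myocd, Meox2 and Id4 were then no longer called, at log2 fold changes of 4.23, 3.97 and 2.88 (adjusted p = 0.126, 0.153 and 0.220, edgeR).

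Of 12 genes tied to the members in the literature as targets or partners, 8 were tested and 2 were called, both lower in GFPtotal. Among all genes tested, 4.55% were called higher and 0.854% lower. Without GFPtotal 3, 4 and 5, 0 of the 8 tested were called. The list was chosen with earlier results of these data known, so its calls are a description and are not read against those shares. Gli1, a transcription factor of the Hedgehog pathway, to which Foxf1 responds, averaged 2.63 ± 1.51 CPM in GFPtotal, against 9.09 ± 6.31 CPM in GFPlow (log2 fold change -1.79, adjusted p = 0.0349, SE 0.47, edgeR). Itgb3, the integrin beta 3 subunit and a reported target of Foxc factors in endothelium, averaged 133 ± 70.5 CPM in GFPtotal, against 325 ± 78.3 CPM in GFPlow (log2 fold change -1.29, adjusted p = 0.0348, SE 0.33, edgeR). Without GFPtotal 3, 4 and 5 the values were -1.39 for Gli1 (adjusted p = 0.311) and -0.75 for Itgb3 (adjusted p = 0.0520), and without GFPlow 6 they were -1.90 for Gli1 (adjusted p = 0.0406) and -1.19 for Itgb3 (adjusted p = 0.0772, edgeR for all 4). Gli1 also lost its call when GFPtotal 3, 4, 5 or 6 or GFPlow 1, 2 or 3 was left out (adjusted p = 0.0540 to 0.0963, edgeR), and Itgb3 when GFPtotal 4 or 5 or GFPlow 2, 3, 4 or 6 was (adjusted p = 0.0633 to 0.0789, edgeR). Cdkn2a, the senescence gene that Tbx2 and Tbx3 repress, and Cxcr4, a reported Foxc target, had 0 counts in all 12 libraries.

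The 3 genes whose profile over the 12 libraries was most like that of Foxc1 were Sphkap, Cacnb2 and Dtl. Likeness was the root-mean-square difference of log2 CPM, each gene centred on its mean, over 9301 genes of at least 5 CPM. It was 0.44 for Sphkap, 0.73 for Cacnb2 and 0.75 for Dtl, against a median of 1.65 over all genes compared and a spread of Foxc1 itself of 1.57. Sphkap, an anchoring protein of protein kinase A, had the smallest difference. It had 42.3 to 51.0 CPM in GFPtotal 1, 2 and 6, with 9.45 to 13.3 CPM in GFPtotal 3, 4 and 5, against 1.64 to 3.08 CPM in GFPlow, so it repeated the high and the low set of GFPtotal libraries seen for Foxc1.

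Cacnb2, a beta subunit of voltage-gated calcium channels, averaged 54.4 ± 18.8 CPM in GFPtotal, against 5.79 ± 2.79 CPM in GFPlow. Dtl, a substrate receptor of a cullin ubiquitin ligase, averaged 13.4 ± 3.16 CPM in GFPtotal, against 2.84 ± 1.24 CPM in GFPlow. Likeness was chosen on the same libraries, so these values describe the match and are not tested.

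**Figure D5:**
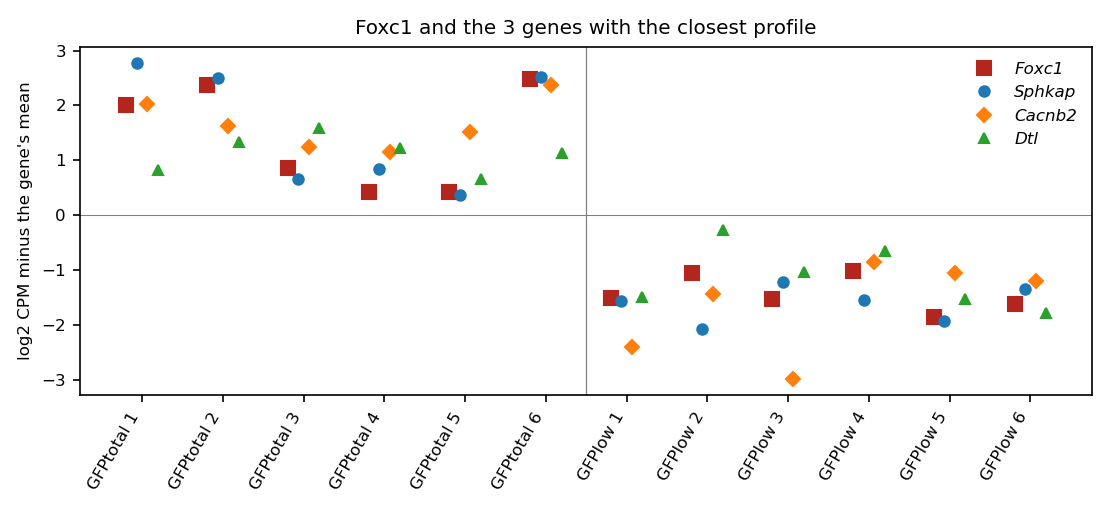
Log2 CPM minus the mean of each gene (vertical axis) in each library, GFPtotal on the left and GFPlow on the right, for Foxc1 and the 3 genes of closest profile. All 4 genes lie above 0 in every GFPtotal library and below 0 in every GFPlow library, and Sphkap has the smallest root-mean-square difference from Foxc1 over the 12 libraries (0.44), though not the smallest difference in each library.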

How the data were processed

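RNA of 12 libraries (6 GFPtotal, 6 GFPlow) was analysed from the deposited raw count of each gene. Per the file headers, featureCounts 1.6.4 assigned read pairs to exons of Ensembl release 84 genes (GRCm38), with mapping quality 10 as the minimum and both strands counted alike. The submitters' processing notes name cutadapt and SAMtools, with the aligner not given in the sources used here. The deposited series table and single files held the same counts in 12 of 12 libraries. No 2 libraries of a group agreed within sampling noise (chi-square per degree of freedom of at least 19.5).

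Symbols were found for 47224 of 47729 genes. Genes were filtered with filterByExpr, scaled by TMM and compared by the quasi-likelihood F test of edgeR 4.0.16 (R 4.3.3), GFPtotal minus GFPlow, with Benjamini-Hochberg adjustment over all genes tested, a threshold of 0.05 and two-sided p-values. The standard error (SE) was taken as the log2 fold change over the root of F. CPM values are on TMM-scaled library sizes, and CPM per kilobase divide them by exon length from the files. Log2 CPM for profiles used a prior count of 2. Intervals of ratios of summed counts are exact binomial intervals and, like the floor of 3 counts, cover counting error only. The steps were tested on simulated data. The alternatives were DESeq2 1.42.0, limma-voom (limma 3.58.1), other scalings and filters, a replicate block, and each library left out. The fits without GFPtotal 3, 4 and 5 together were chosen after seeing the data.

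The members and gene lists were chosen with earlier results of these data known. Genes beyond the members were named by a rule: from each list, the called genes of largest change (at most 4 per direction), or the 2 most abundant per kilobase, the 3 closest profiles to a called member, and genes within 10 kb of a member. Mef2c and Epas1, among others, were named outside this rule, after their values were seen. Lists were described by counts and medians, with no set test. Promoters and coding sequence are from RefSeq (GRCm38.p6) and GENCODE M21 (GRCm38).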

Additional observations from a re-analysis of the deposited data

Results flagged for a closer look

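The levels of 2 members had a library far from the others of its group. Ebf1 reached 888 CPM in GFPlow 5, with the next GFPlow library at 510 CPM. Ebf2 reached 1.76 CPM in GFPlow 3, where it had 28 counts, with the next GFPlow library at 0.291 CPM. Chance flags about 1 in 20 groups of this kind.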

How the results depend on the processing

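Foxc1 kept its direction and its call under all 22 alternatives, with a log2 fold change of 3.37 to 4.46 and an adjusted p of at most 0.0310 (edgeR, limma-voom and DESeq2). Ebf1 and Tbx3 stayed uncalled and below 0 under the same 22. The number of members called was 1 as reported, 2 with DESeq2 (Ebf2 and Foxc1), and 1 to 2 when each library was left out, with Tbx2 added without GFPtotal 6 or GFPlow 1 and Ebf2 added without GFPlow 3. The number of genes called was 785 as reported, 1384 with DESeq2, 467 to 970 when each library was left out (467 without GFPtotal 3, 521 without GFPtotal 4), and 295 without GFPtotal 3, 4 and 5. The cause of these shifts was not tested. Scaling by total library size alone gave 505 genes higher and 257 lower, against 661 and 124 as reported. No label says that the replicate numbers pair the libraries. Same-numbered libraries correlated at -0.139 to 0.0892 in their deviations from the group means, and the best partner had the same number only for replicates 2 and 6. Such values cannot decide whether the libraries were paired. With a replicate block, 582 genes and 1 member were called, Foxc1 at a log2 fold change of 3.67 (adjusted p = 0.0221), and Ebf2 stood at 3.64 (adjusted p = 0.0726). Of the other called genes named, Ebf3, Zfp521, Meox2 and Id4 lost their call under that block (adjusted p = 0.113, 0.0611, 0.118 and 0.0509, edgeR). Gli1 kept its call in 13 of 22 alternatives and Itgb3 in 14. Depth limits the members with few counts: Foxs1, Foxf1, Tbx18 and Tbx2 had 2 to 152 counts over GFPtotal and 0 to 64 over GFPlow.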

Other observations

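Some regulators outside the members were told apart by the libraries used, and these were chosen after their values were seen. Foxo1, a forkhead factor of insulin signalling that is needed for decidualization of the uterine stroma, had 228 to 271 CPM in libraries 1, 2 and 6 of GFPtotal but 69.5 to 77.5 CPM in libraries 3, 4 and 5, against 53.0 to 188 CPM in GFPlow. Its log2 fold change was 0.50 over all libraries (adjusted p = 0.557) and 1.11 without GFPtotal 3, 4 and 5 (adjusted p = 0.0340, edgeR for both). Epas1, the hypoxia-inducible factor of vessels and stroma, had 410 to 639 CPM in libraries 1, 2 and 6 of GFPtotal but 119 to 183 CPM in libraries 3, 4 and 5, against 90.0 to 210 CPM in GFPlow. Its log2 fold change was 1.18 over all libraries (adjusted p = 0.0925) and 1.77 without GFPtotal 3, 4 and 5 (adjusted p = 0.000161, edgeR for both). Tbx15, a T-box factor of limb and fat mesenchyme, had 77 counts in GFPtotal and 7 in GFPlow and was not tested.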
